A study of Mus musculus with 9 samples.

Results

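RNA-Seq counts of 42 genes for integrin subunits, syndecans and the adaptors and kinases of focal adhesions were examined in cultured mouse AdvSca1-SM cells. The members were listed by symbol from the known parts of these adhesions, with earlier results of these data known. All 42 were found among the 55416 genes of the table, and 39 of them passed the filter on low counts together with 14879 genes in all. AdvSca1-SM cells are Sca1-expressing progenitors of the artery wall that derive from smooth muscle cells. They were sorted as YFP+ Sca1+ cells from carotid arteries and from the arch and descending part of the aorta of 8-week-old SM22α-Cre-YFP mice, whose vessels were pooled, and were then subcultured. In these mice the SM22α promoter drives Cre, so the YFP label follows any cell with a smooth muscle history.

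The 9 libraries formed 3 groups of 3, and all cells received 0.1% DMSO and were harvested at 72 h. The Stem group had the vehicle alone, the TGF-β group had 5 ng/mL TGF-β1, and the Both group had 5 ng/mL TGF-β1 plus 50 μM PFI-3, a bromodomain ligand of Brg1, which is a chromatin remodeler. The sources differ on the medium of the Stem cells. The labels give a single protocol for all libraries, with growth arrest for 24 h and then DMEM with 0.1% FBS, whereas the study describes stem cell medium for Stem, which for maintenance held 10% FBS with 1 ng/mL bFGF and 5 ng/mL EGF. If the Stem cells stayed in that medium, medium and TGF-β1 cannot be told apart in the comparisons with Stem. PFI-3 is what sets Both apart from TGF-β in either account. No group with PFI-3 alone is analysed here. The labels number the replicates but do not say whether each came from a separate isolation, so the p-values measure the spread between these libraries.

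Integrins are pairs of one α and one β subunit that bind matrix proteins outside the cell and, through talin and kindlin, the actin cytoskeleton inside it. The α subunit largely sets the ligand: α1, α2, α10 and α11 bind collagens, α3, α6 and α7 bind laminins, α5, α8 and αv bind ligands with an RGD sequence such as fibronectin and vitronectin, and α4 and α9 bind VCAM-1, fibronectin splice forms or tenascin. Syndecans are heparan sulfate proteoglycans that bind the same matrix beside integrins. In fibroblasts that become myofibroblasts, adhesions enlarge and carry tension, and αv integrins can release TGF-β from its latent complex.

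Total counts per library lay between 35686291 and 47741128, and members took between 0.698% and 0.813% of them. Stem replicate 2 stood apart from its group, with a chi-square per degree of freedom over genes of 126 and 103 against Stem replicates 1 and 3, where the other pairs within a group had 5.87 to 16.0. Without it the same 13 members passed the 2-fold rule between TGF-β and Stem and the same 32 passed without the fold minimum. The deviations of Stem replicate 2 from its group mean correlated with those of replicate 2 in TGF-β (0.434) and in Both (0.485). Markers of the progenitor state (Ly6a, Cd34, Pdgfra, Scara5) summed to between 50475 and 58767 normalized counts (counts brought to a common library size) in Stem, 6361 to 6638 with TGF-β and 6784 to 7423 in Both. Pdgfra carried this sum and was 15.3% higher in Both than in TGF-β (adjusted p = 0.0485, edgeR), while Scara5 was 2.26-fold lower (adjusted p = 0.0383, edgeR) and Ly6a and Cd34 did not pass, at log2 fold changes of -0.36 and -0.62. The 5 mature smooth muscle markers, whose sum was carried by Smtn and lay between 2807 and 4240 normalized counts over the 9 libraries, went in different directions. Myh11 fell 2.99-fold and Lmod1 1.62-fold between Stem and TGF-β (adjusted p = 2.12e-05 and 2.37e-06, edgeR), while Myocd had 0, 0 and 1 counts in Stem, under the floor of 3 counts, and 16 to 28 in the stimulated libraries. In Both against TGF-β Cnn1 was 35.5% lower (adjusted p = 0.00914, edgeR), and Myh11 had a log2 fold change of -0.78 that did not pass (adjusted p = 0.0776, edgeR), with groups that did not overlap. The labels' extraction text speaks of hepatic tissue, but all 5 hepatocyte markers were at or under the floor in every library. Of 6 leukocyte markers 4 were at or under the floor throughout, Ptprc, Cd3e and Adgre1 among them. The sum of the list, carried by Csf1r, went from 19.6 to 41.9 in Stem to 71.0 to 103 with TGF-β and 152 to 156 in Both. Cd68 had 1 to 7 counts in Stem and 10 to 19 in the stimulated libraries, a 3.63-fold rise with TGF-β (adjusted p = 0.00475, edgeR). The sum of 4 Schwann cell markers, carried by S100b, was 42.9 to 51.1 in Stem, 377 to 438 with TGF-β and 241 to 254 in Both. Endothelial markers summed to 51.8 to 77.1 over the 9 libraries, but Kdr had 0, 0 and 2 counts in Stem and 21 to 34 in the stimulated libraries, while Tek fell 2.48-fold between Stem and TGF-β (adjusted p = 3.39e-04, edgeR). Of the other lists, 4 of 5 epithelial and all 4 red cell and platelet markers were at the floor. The part of these shifts in the results below was not tested. In bulk libraries, fewer cells with a transcript and less transcript per cell cannot be told apart.

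Several members are described beside their promoters, because genes that lie together or share a role moved in different directions. RefSeq holds a promoter for 31 of the 42 members (37 promoters). The 250 bases before the start are given 5′ to 3′ for Itga1 and Itga2, which are neighbours on chromosome 13 with 0 protein-coding genes starting between them, for Itga4, which had the largest rise, for Sdc4, the syndecan that fell, and for Vcl. Coordinates are those of GRCm38.p6, which is not the build used for the counts. The capitals in Vcl mark first the CArG box of SRF (CCTTATAAGG, 227 to 218 bases before the start) and then a TEAD site (GGAATG, 143 to 138 bases before it).
Itga1 (chr13:115101965-115102214, minus strand): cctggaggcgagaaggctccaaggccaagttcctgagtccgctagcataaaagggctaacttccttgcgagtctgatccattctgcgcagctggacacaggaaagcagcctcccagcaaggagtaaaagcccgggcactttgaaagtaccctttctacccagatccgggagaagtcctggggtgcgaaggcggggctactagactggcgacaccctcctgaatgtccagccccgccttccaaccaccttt
Itga2 (chr13:114932101-114932350, minus strand): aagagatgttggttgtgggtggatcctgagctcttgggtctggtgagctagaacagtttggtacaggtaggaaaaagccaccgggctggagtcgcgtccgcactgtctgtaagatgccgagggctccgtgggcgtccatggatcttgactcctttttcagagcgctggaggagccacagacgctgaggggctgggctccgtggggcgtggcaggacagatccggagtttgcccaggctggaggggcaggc
Itga4 (chr2:79255176-79255425, plus strand): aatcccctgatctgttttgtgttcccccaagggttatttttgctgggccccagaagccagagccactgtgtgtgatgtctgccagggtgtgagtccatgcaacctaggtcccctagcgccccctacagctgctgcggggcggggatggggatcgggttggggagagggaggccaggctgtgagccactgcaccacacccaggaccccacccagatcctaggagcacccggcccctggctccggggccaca
Sdc4 (chr2:164443189-164443438, minus strand): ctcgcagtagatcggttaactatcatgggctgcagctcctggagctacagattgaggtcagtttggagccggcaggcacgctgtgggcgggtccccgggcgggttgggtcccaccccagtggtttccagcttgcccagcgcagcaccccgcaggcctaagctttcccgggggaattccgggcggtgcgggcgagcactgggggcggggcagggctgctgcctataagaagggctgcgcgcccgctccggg
Vcl (chr14:20929148-20929397, plus strand): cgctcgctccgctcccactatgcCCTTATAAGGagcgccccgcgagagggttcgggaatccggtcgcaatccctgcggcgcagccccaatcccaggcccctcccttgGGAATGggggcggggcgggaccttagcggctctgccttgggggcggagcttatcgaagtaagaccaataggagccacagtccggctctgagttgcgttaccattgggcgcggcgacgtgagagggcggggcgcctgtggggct

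A set of 4 motifs was sought on both strands in the 300 bases from 250 before to 50 after each start. The CArG box (CC, then 6 bases that are A or T, then GG) was present in 3 of the 37 member promoters (Fermt2, Itgb6 and Vcl), against 1.63% of all 32851 promoters. The AP-1 site TGACTCA was present in 2 (Itga9 and Zyx), against 5.2%. The TEAD site GGAATG was present in 3 (Itga10, Itgb1 and Vcl), against 14.7%. The SMAD palindrome GTCTAGAC was present in 0 of 37, against 0.213% of all. The promoters of Itga1, Itga2, Itga4 and Sdc4 held none of these letters in this window. Of the 3 members that hold a CArG box, Vcl fell between Stem and TGF-β. Fermt2 differed by 0.053 ± 0.039 on the log2 scale (adjusted p = 0.241, edgeR). Itgb6, which also has a promoter without the box, was at or below 4 counts in each library and was not tested. Whether the motifs bear on the courses of the members was not tested.

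The first comparison, TGF-β against Stem, asks how adhesion genes differ between the progenitor culture and cells stimulated with TGF-β1. Integrin subunits made up 10 of the 13 members called past 2-fold. The fibronectin receptor Itga5, the laminin receptors Itga6 and Itga7 and the VCAM-1 receptor Itga4 rose, the collagen receptor Itga2 rose while Itga1 and Itga8 fell, and Itgb3 and Itgb5, partners of αv, rose. Sdc4 fell while the other 3 syndecans rose, and 9 of the 18 adaptors and kinases fell, each by less than 2-fold. In edgeR's quasi-likelihood fit, at a Benjamini-Hochberg adjusted p of 0.05 over all genes tested and a 2-fold minimum, 10 of 39 members rose and 3 fell. Over all genes tested 10.6% were called higher and 14.5% lower by the same rule. Without the fold minimum 19 members rose and 13 fell, against 37.3% and 37.7% of all genes. The libraries of both groups did not overlap in 33 of 39 members, against 76.8% of all genes. The median log2 fold change of members was 0.10 and that of all genes -0.0027. The median of its absolute size was 0.55 for members and 0.49 for all genes.

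The second comparison, Both against TGF-β, asks what the addition of PFI-3 changed in stimulated cells. No member was called past 2-fold in the main edgeR fit or by DESeq2, although Itgb4 was without Both replicate 2. In the main fit 0 members had a fitted change past 2-fold at any p. Of all genes, 0.161% were called higher and 0.47% lower with the 2-fold minimum. Without it, 15 members were called by edgeR. Itga3, Itgb5, Tns3 and Sdc4 were higher in Both, and Itga4, Itga5, Itga7, Itga9, Itga11, Itgb3, Itgb4, Itgb8, Tln2, Ptk2b and Sdc3 were lower. The shares of all genes were 3.54% higher and 5.38% lower. The groups did not overlap in 25 of 39 members, against 32.7% of all genes. Only 6 of the 15 calls (Itga4, Itga5, Itga11, Tln2, Ptk2b and Sdc3, all lower) held under every alternative run for calls without the fold minimum. The count of calls was 6 without TGF-β replicate 2 or without Both replicate 1. All 4 higher calls were lost when either of these libraries was left out. Without Stem replicate 2 there were 21 calls, the 15 and also Itgav, Ptk2, Parvb, Tns1, Src and Sdc1. With the replicate number as a block there were also 21, and 2309 of all genes were called against 1327. For the fits that leave out a library, counts over all genes are not given. The comparisons with TGF-β share its 3 libraries, so their values are given side by side and their likeness is not a result.

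**Figure D1:**
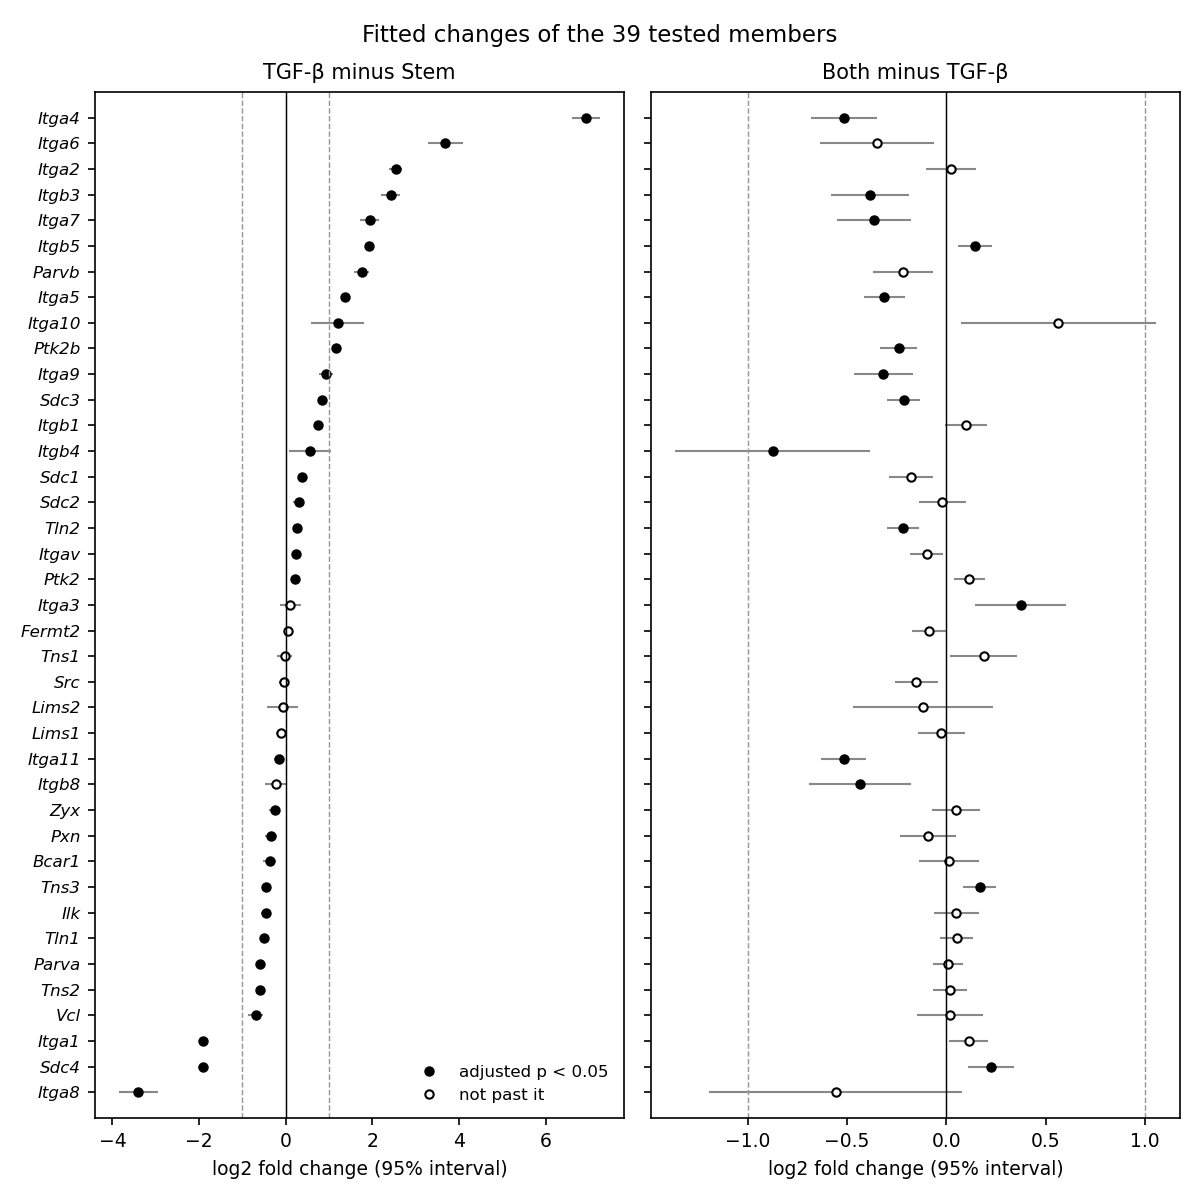
Fitted log2 fold changes (x axis) of the 39 tested members (rows, ordered by the first comparison) for TGF-β minus Stem on the left and Both minus TGF-β on the right, with 95% intervals as bars. Filled points passed an adjusted p of 0.05 (edgeR) and open points did not, dashed lines mark 2-fold, and the x scales of the panels differ. On the left 13 filled points lie beyond the dashed lines and on the right none does, where only the interval bounds of Itga8, Itga10 and Itgb4 cross them.

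Among α subunits, 6 of 12 rose and 2 fell past 2-fold between Stem and TGF-β, against 10.6% and 14.5% of all genes, and 8 rose and 3 fell without the fold minimum, against 37.3% and 37.7%. Itga4 encodes α4, a receptor for VCAM-1 and fibronectin best known from leukocytes. Its normalized counts were 12.6, 10.9 and 7.57 in Stem, 1277, 1287 and 1256 in TGF-β, and 844, 1013 and 817 in Both. The Stem libraries were close to the floor and no group overlapped another. The log2 fold change was 6.92 ± 0.14 (adjusted p = 1.59e-12, edgeR), a 121-fold rise. In Both it was 30.1% lower than in TGF-β, at a log2 fold change of -0.52 ± 0.075 (adjusted p = 0.00135, edgeR), and it was still 84.9-fold above Stem. Itga4 passed the filter on low counts through TGF-β and Both, since only 2 of 3 Stem libraries met it. Its exons share 1124 of 13978 bases with Cerkl on the opposite strand. Of 8 listed leukocyte and platelet integrin genes (Itga2b, Itgad, Itgae, Itgal, Itgam, Itgax, Itgb2, Itgb2l) only Itga2b and Itgb2 passed the filter, and neither was called between Stem and TGF-β by edgeR or DESeq2, nor at an unadjusted p of 0.05, although the libraries of these groups did not overlap in either gene. In Both against Stem edgeR called both genes lower, at log2 fold changes of -0.54 and -0.63, and DESeq2 called neither. Of the 6 leukocyte markers, 4 were at or under the floor throughout. Csf1r rose 2.65-fold and Cd68 3.63-fold between Stem and TGF-β (adjusted p = 2.07e-04 and 0.00475, edgeR). Whether these shifts and the rise of Itga4 have a common source was not tested.

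Itga9 encodes α9, the closest relative of α4, which binds tenascin-C and osteopontin. Normalized counts were 1106, 1344 and 1261 in Stem, 2380.5, 2368 and 2298 in TGF-β, and 1839, 2043 and 1774 in Both. The groups stood apart in each case, with Both between the others. It rose 1.90-fold in TGF-β, at a log2 fold change of 0.93 ± 0.07 (adjusted p = 1.34e-07, edgeR). In Both it was 19.8% lower than in TGF-β (adjusted p = 0.0132, edgeR), a call lost without TGF-β replicate 1 or 2, or Both replicate 1 or 3, with adjusted p from 8.51e-06 to 0.0669 over the alternatives. Per exon length, as RPKM, Itga4 made up 0.464% ± 0.147 (SD, n = 3) of the summed level of this pair in Stem and 23.0% ± 0.169 in TGF-β.

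The collagen receptors went in different directions. Itga1 encodes α1, a receptor for basement membrane collagen that is typical of smooth muscle. Its normalized counts were 6202, 6054 and 6350.4 in Stem, 1758, 1573 and 1647 in TGF-β, and 1775, 1841 and 1766 in Both. All Stem libraries lay far above the others, and the log2 fold change of -1.90 ± 0.045 (adjusted p = 4.34e-12, edgeR) was a 3.74-fold fall. Both differed from TGF-β by 0.11 ± 0.046 on the log2 scale (adjusted p = 0.155, edgeR), which did not pass. Itga2, its neighbour on the chromosome, encodes α2, a receptor for fibrillar collagen. Itga2 had normalized counts of 164, 187 and 171 in Stem, 983, 968 and 1081 in TGF-β, and 1052, 1005 and 1023 in Both. It rose 5.81-fold, at a log2 fold change of 2.54 ± 0.07 (adjusted p = 1.40e-11, edgeR), and its TGF-β and Both libraries overlapped. The interval of that second difference was -0.10 to 0.15 on the log2 scale.

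Itga11 encodes α11, the main receptor for fibrillar collagen on fibroblasts. Normalized counts were 3297, 3033 and 3139.5 in Stem, 2907, 2663 and 2898 in TGF-β, and 2086, 1949 and 1885 in Both. In TGF-β it fell by 10.6% (log2 fold change -0.16 ± 0.051, adjusted p = 0.0131, edgeR), a call lost without TGF-β replicate 2, with adjusted p from 9.33e-04 to 0.0809 over the alternatives. Both lay below every library of the other groups. The log2 fold change of -0.52 ± 0.052 against TGF-β had the smallest adjusted p of the members in this comparison (1.28e-04, edgeR), a fall of 30.1%, and it held in all alternatives with adjusted p from 6.21e-15 to 0.00144. Itga10, the fourth collagen receptor, was low, with between 16.3 and 103 normalized counts, and rose 2.30-fold between Stem and TGF-β (adjusted p = 0.00192, edgeR). That call past 2-fold did not hold with edgeR's TREAT test against 2-fold. Its exons share 1739 of 5186 bases with another gene model on the same strand, so its counts are uncertain.

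Levels of different genes were compared per length, as RPKM computed from the counts and exon lengths. On that scale Itga11 made up 62.9% ± 0.943 (SD, n = 3) of the 4 collagen-binding α subunits in Stem, 69.5% ± 0.432 with TGF-β and 60.1% ± 0.786 in Both. Itga1 went from 34.1% ± 0.806 to 11.3% ± 0.413 and 15.1% ± 0.747. Itga2 went from 2.50% ± 0.243 to 17.9% ± 0.792 and 22.5% ± 0.551. Itga2 thus passed Itga1 within this class in all 6 stimulated libraries. The summed level of the class was 23.7 ± 0.711 in Stem, 19.2 ± 0.898 with TGF-β and 15.5 ± 0.626 in Both.

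**Figure D2:**
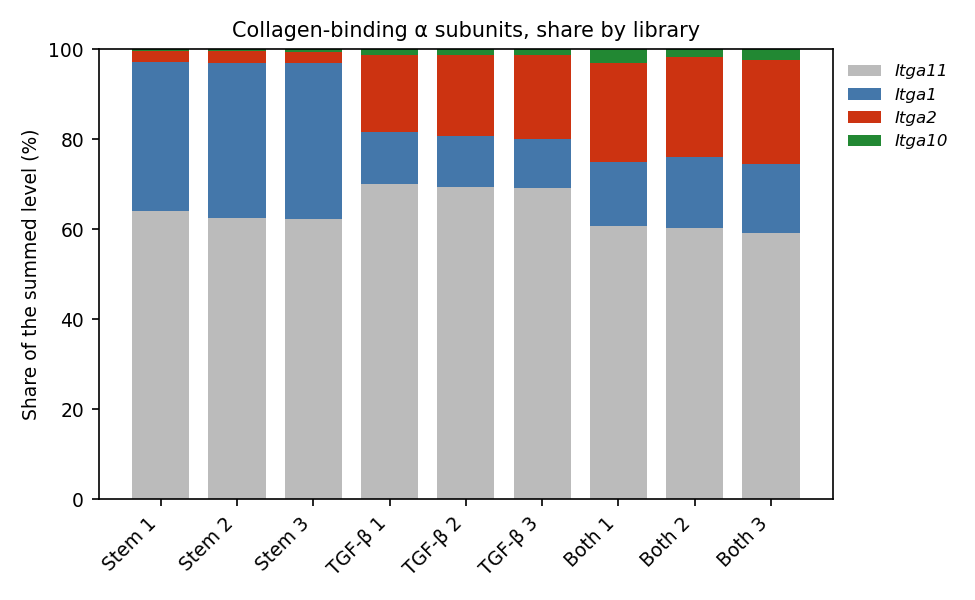
Share (y axis, percent) of each collagen-binding α subunit in their summed level per length, in each of the 9 libraries (x axis). The share of Itga1 was 33.2 to 34.8% in Stem and 10.9 to 15.7% in the stimulated libraries, while that of Itga2 was 2.30 to 2.77% in Stem and 17.0 to 23.1% in the others.

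The laminin receptors rose, from low levels, with one exception. Itga6 encodes α6, which pairs with β1 or β4. Normalized counts were 27.2, 26.1 and 30.3 in Stem, 312, 383 and 382 in TGF-β, and 222, 327 and 298 in Both. All stimulated libraries lay above Stem, by 12.8-fold in TGF-β (log2 fold change 3.68 ± 0.19, adjusted p = 3.14e-09, edgeR). TGF-β and Both overlapped, at a log2 fold change of -0.35 ± 0.13 (adjusted p = 0.124, edgeR). Itga7, which encodes the laminin receptor of differentiated muscle, had normalized counts of 71.2, 71.7 and 60.6 in Stem, 257, 262 and 264 in TGF-β, and 211, 192 and 204 in Both. It rose 3.84-fold (log2 fold change 1.94 ± 0.10, adjusted p = 3.82e-09, edgeR), and Both lay between the groups, 22.4% below TGF-β (adjusted p = 0.0202, edgeR), a call lost without TGF-β replicate 1, 2 or 3, or Both replicate 1, 2 or 3, with adjusted p from 0.0104 to 0.0814 over the alternatives. Itga3, the exception, had normalized counts of 957, 719 and 934 in Stem, 953, 881 and 973 in TGF-β, and 1315, 1049 and 1271 in Both. Stem and TGF-β overlapped, and Both lay above TGF-β by 29.6% (log2 fold change 0.37 ± 0.11, adjusted p = 0.0471, edgeR), a call lost without Stem replicate 3, or TGF-β replicate 1, 2 or 3, or Both replicate 1 or 3 and with scaling by total counts, with adjusted p from 1.05e-05 to 0.181 over the alternatives. Itga3 was the highest of the 3 laminin receptors per length in every group, with 92.9% ± 1.24 of their sum in Stem and 69.5% ± 2.11 in TGF-β.

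Of the RGD receptors, Itga5 encodes α5, which with β1 forms the classical fibronectin receptor. Normalized counts were 2911, 2582 and 2598 in Stem, 7007, 6834 and 7148 in TGF-β, and 5620.0, 5515 and 5775 in Both. The 3 groups were separate, with TGF-β highest and Both next. The rise was 2.59-fold (log2 fold change 1.38 ± 0.049, adjusted p = 1.16e-10, edgeR), and Both was 19.4% below TGF-β (log2 fold change -0.31 ± 0.047, adjusted p = 0.0017, edgeR). Itga8, which encodes the nephronectin receptor α8 and is found in smooth muscle and mesenchyme, had normalized counts of 511, 332 and 345 in Stem, 47.5, 35.5 and 30.3 in TGF-β, and 26.1, 25.7 and 24.6 in Both. Stem replicate 1 stood above the other Stem libraries, but all 3 lay far above the stimulated ones. It fell 10.5-fold (log2 fold change -3.40 ± 0.20, adjusted p = 1.49e-08, edgeR). Both was lower than TGF-β in every library, but at these counts the difference of -0.56 ± 0.29 did not pass (adjusted p = 0.274, edgeR). Itgav encodes αv and was the highest α subunit per length in all groups, at 48.5 ± 1.89 in Stem, 56.7 ± 0.366 with TGF-β and 53.0 ± 0.56 in Both. It rose only 1.17-fold in TGF-β (adjusted p = 1.42e-04, edgeR). Both against TGF-β did not pass in the main fit (log2 fold change -0.099 ± 0.037, adjusted p = 0.127, edgeR).

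**Figure D3:**
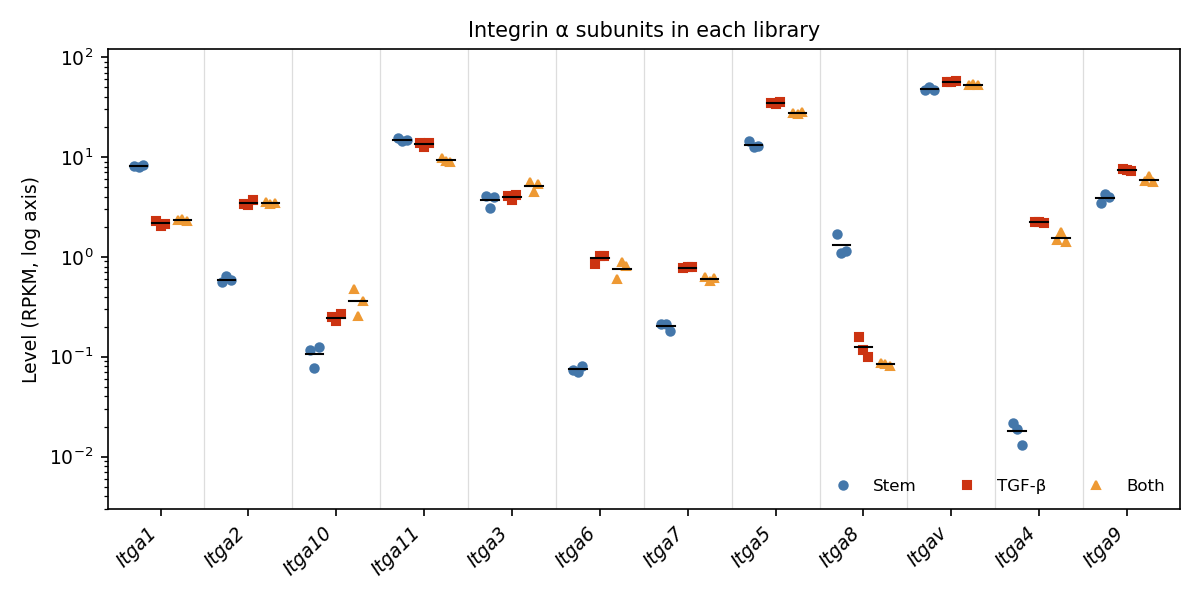
Level per length (y axis, RPKM, log scale) of the 12 integrin α subunits (x axis, grouped as collagen, laminin, RGD and α4/α9 receptors) in each library. Circles are Stem, squares TGF-β and triangles Both, and black bars are group means. Itga4 spans the widest range and Itgav is the highest in each group.

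In the order of α levels per length, Itgav was followed in Stem by Itga11 (14.9 ± 0.628), Itga5 (13.3 ± 0.915) and Itga1 (8.10 ± 0.193), and Itga4 (0.018 ± 0.00441) was last. In TGF-β Itga5 (34.4 ± 0.772) was second and Itga8 (0.124 ± 0.0291) last. In TGF-β, Itga4 (2.21 ± 0.0278) and Itga1 (2.17 ± 0.121) were neighbours that did not differ beyond their SD, and in Stem the same was true of Itga9 (3.91 ± 0.383) and Itga3 (3.70 ± 0.557). The summed α level was 94.7 ± 1.15 in Stem, 126 ± 2.01 with TGF-β and 110.4 ± 0.579 in Both.

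Among β subunits 2 of the 5 tested rose past 2-fold, where 10.6% of all genes did. Itgb1, the partner of most α subunits here, was the highest β per length, at 322 ± 18.8 in Stem, 541 ± 5.49 with TGF-β and 580.2 ± 21.4 in Both. It rose 1.68-fold in TGF-β (adjusted p = 3.26e-08, edgeR). Both against TGF-β did not pass (log2 fold change 0.10 ± 0.048, adjusted p = 0.2335, edgeR). Itgb5 encodes β5, an αv partner that binds vitronectin and is linked to release of latent TGF-β. Normalized counts were 13059.9, 13552 and 12669 in Stem, 50179, 48532 and 49978 in TGF-β, and 55575, 55314 and 53545 in Both. All stimulated libraries lay above Stem by a wide margin, and all Both libraries above TGF-β by a narrow one. The rise was 3.79-fold in TGF-β (log2 fold change 1.92 ± 0.04, adjusted p = 1.60e-12, edgeR), and Both was 10.6% above TGF-β (adjusted p = 0.0387, edgeR), a call lost without TGF-β replicate 1, 2 or 3, or Both replicate 1, 2 or 3, with adjusted p from 0.00643 to 0.162 over the alternatives.

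Itgb3 encodes β3, the partner of αv in the vitronectin receptor that platelets and osteoclasts also carry. Normalized counts were 387, 553 and 397 in Stem, 2310.3, 2479.6 and 2379 in TGF-β, and 1776, 1846 and 1870.4 in Both. The groups did not overlap, with Both between Stem and TGF-β. It rose 5.36-fold (log2 fold change 2.42 ± 0.10, adjusted p = 5.30e-10, edgeR) and was 23.4% lower in Both than in TGF-β (adjusted p = 0.0197, edgeR), a call lost without TGF-β replicate 1, 2 or 3, or Both replicate 1 or 3, with adjusted p from 2.07e-07 to 0.0895 over the alternatives. Itgb8, whose product with αv also releases TGF-β, had normalized counts of 389, 461 and 370.0 in Stem, 330.2, 361 and 348 in TGF-β, and 211, 270.5 and 287 in Both. Its difference between Stem and TGF-β was -0.23 ± 0.11 on the log2 scale (adjusted p = 0.0844, edgeR) and was 26.1% lower in Both than in TGF-β (adjusted p = 0.0393, edgeR), a call lost without Stem replicate 3, or TGF-β replicate 1, 2 or 3, or Both replicate 1 or 2, with adjusted p from 5.26e-04 to 0.139 over the alternatives. In the main fit the αv partners Itgb3 and Itgb8 were thus lower and Itgb5 higher in Both than in TGF-β. Each of these calls was lost in several of the fits that left out 1 library.

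Itgb4, the α6 partner of hemidesmosomes, stayed between 22.8 and 57.6 normalized counts. Its call between TGF-β and Both (log2 fold change -0.88 ± 0.22, adjusted p = 0.0318, edgeR) was a call lost without Stem replicate 3, or TGF-β replicate 1, 2 or 3, or Both replicate 1 or 3, with adjusted p from 0.00245 to 0.118 over the alternatives. Without Both replicate 2 it was past 2-fold. Its rise between Stem and TGF-β (adjusted p = 0.0407, edgeR) was a call lost without Stem replicate 1, or TGF-β replicate 1, 2 or 3 and with DESeq2 and scaling by total counts, with adjusted p from 0.0238 to 0.16 over the alternatives. Itgb7, a leukocyte subunit, had at most 9.65 normalized counts and Itgb6, an epithelial one, at most 3.51, and neither was tested. Per length, Itgb5 made up 97.0% ± 0.417 of the summed level of the αv partners other than β1 in Stem, 97.0% ± 0.159 with TGF-β and 97.9% ± 0.111 in Both. The sum of these partners rose from 92.2 ± 3.46 in Stem to 349 ± 5.79 with TGF-β and 383 ± 7.33 in Both.

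**Figure D4:**
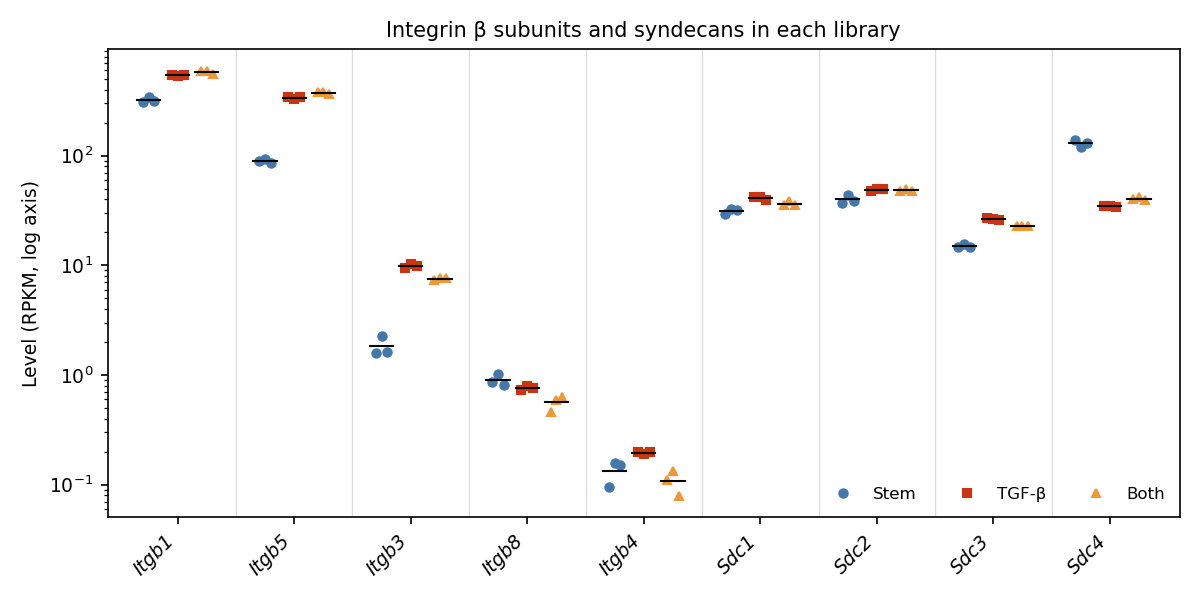
Level per length (y axis, RPKM, log scale) of the 5 tested integrin β subunits and the 4 syndecans (x axis) in each library, with black bars for group means. Circles are Stem, squares TGF-β and triangles Both. Sdc4 is the highest syndecan in Stem, at 129.8 ± 9.74, and is below Sdc1 and Sdc2 in TGF-β, at 34.7 ± 0.433.

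The syndecans changed order. Sdc4, the syndecan that localizes to focal adhesions and works with α5β1 on fibronectin, had normalized counts of 14598, 12558 and 13684 in Stem, 3679.7, 3637 and 3589 in TGF-β, and 4224, 4406 and 4108 in Both. Stem lay far above the rest, and every Both library lay above every TGF-β library. It fell 3.75-fold (log2 fold change -1.91 ± 0.053, adjusted p = 1.60e-11, edgeR) and was 16.8% higher in Both than in TGF-β (adjusted p = 0.0208, edgeR), a call lost without TGF-β replicate 1, 2 or 3, or Both replicate 1 or 2, with adjusted p from 5.09e-04 to 0.0906 over the alternatives. Sdc3, known from the nervous system and muscle, had normalized counts of 3599, 3858 and 3613 in Stem, 6665, 6584 and 6361 in TGF-β, and 5629.9, 5622 and 5640.1 in Both. It rose 1.77-fold (log2 fold change 0.82 ± 0.039, adjusted p = 1.48e-09, edgeR) and was 13.9% lower in Both than in TGF-β (adjusted p = 0.00461, edgeR). Sdc1 and Sdc2 rose 1.31-fold and 1.23-fold (adjusted p = 2.12e-05 and 3.76e-04, edgeR), and neither passed between TGF-β and Both, where Sdc1 was near the threshold (adjusted p = 0.0502, edgeR). Sdc1 was called there by DESeq2, with either other low-count filter, with the replicate block and in the fit of only the 6 libraries compared. It was also called without Stem replicate 1, Stem replicate 2 or Both replicate 2.

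Per length, Sdc4 made up 60.0% ± 3.34 (SD, n = 3) of the 4 syndecans in Stem, 22.9% ± 0.274 with TGF-β and 27.4% ± 0.259 in Both. The summed syndecan level was 216 ± 4.28 in Stem, 151 ± 1.80 with TGF-β and 148 ± 4.35 in Both. In TGF-β the highest syndecan was Sdc2 (49.0 ± 1.36), followed by Sdc1 (41.0 ± 1.24). The syndecan sum was therefore lower in stimulated cells while the summed β integrin level was higher, at 414 ± 21.6 in Stem, 891 ± 10.7 with TGF-β and 963 ± 28.4 in Both.

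Of the 18 tested cytoplasmic adaptors and kinases, 4 rose and 9 fell between Stem and TGF-β, against 37.3% and 37.7% of all genes. Past 2-fold 2 rose and 0 fell by edgeR or DESeq2, against 10.6% and 14.5%. Of talin, vinculin and zyxin genes, 3 fell, 1 rose and none was past 2-fold by edgeR or DESeq2 between Stem and TGF-β. Tln1, the main talin that switches integrins on, fell 1.43-fold (log2 fold change -0.51 ± 0.039, adjusted p = 1.42e-07, edgeR), from 29506 ± 1014 to 20669.7 ± 280.4 normalized counts. Vcl, which encodes vinculin, the link from talin to actin, fell 1.62-fold (log2 fold change -0.70 ± 0.077, adjusted p = 4.53e-06, edgeR). Its exons share 2090 of 8191 bases with Ap3m1 on the opposite strand. Zyx, a tension-sensitive LIM protein, fell 1.20-fold (adjusted p = 0.00105, edgeR). None of these 3 passed between TGF-β and Both, where their intervals on the log2 scale were -0.034 to 0.14, -0.15 to 0.19 and -0.072 to 0.17.

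Tln2, the second talin, went the other way. Normalized counts were 4275, 4347 and 4101 in Stem, 5024, 5041 and 5059 in TGF-β, and 4224, 4471 and 4313 in Both. TGF-β lay above both other groups, which overlapped each other. It rose 1.19-fold (log2 fold change 0.25 ± 0.037, adjusted p = 6.04e-05, edgeR) and was 14.0% lower in Both (log2 fold change -0.22 ± 0.037, adjusted p = 0.00361, edgeR), a call that held in all alternatives. Between Stem and Both the log2 difference was 0.032 ± 0.037, with an interval of -0.049 to 0.11. Per length Tln1 stayed above Tln2 throughout, at 51.2 ± 0.695 against 6.67 ± 0.0232 in TGF-β. Fermt2, which encodes the kindlin of mesenchymal cells, did not pass in the first comparison (interval -0.033 to 0.14) or the second (-0.17 to -0.0032), and Fermt1, the epithelial kindlin, had at most 4.06 normalized counts and was not tested.

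The ILK, PINCH and parvin proteins form a complex on the β tail. Ilk and Parva fell 1.38-fold and 1.52-fold (adjusted p = 5.76e-06 and 1.04e-08, edgeR). The exons of Ilk overlap Taf10 on the opposite strand over 2106 of 2744 bases, and since the strand setting of the counting is not given, its counts may hold reads of both. Parvb, the β-parvin gene, rose instead. Normalized counts were 208, 222 and 188 in Stem, 687, 657 and 731 in TGF-β, and 558, 613 and 614 in Both. It rose 3.36-fold (log2 fold change 1.75 ± 0.079, adjusted p = 1.06e-09, edgeR), and every Both library lay below every TGF-β library without passing the test (log2 fold change -0.22 ± 0.07, adjusted p = 0.0749, edgeR). Per length Parva remained higher, at 23.3 ± 0.372 against 3.80 ± 0.205 for Parvb in TGF-β. Lims1 and Lims2, the PINCH genes, did not pass in either comparison in the main fit. Between Stem and TGF-β Lims1 was called with total counts, the filter on a mean of at least 10 counts, the replicate block and without Stem replicate 1. Between TGF-β and Both 0 of the 5 genes of the complex were called in the main edgeR fit or by DESeq2. In that edgeR fit 3.54% of all genes were called higher and 5.38% lower. The smallest unadjusted p of the complex was 0.00873, for Parvb (edgeR). Parvb was called by edgeR in the fit of only the 6 libraries compared, with the replicate block and without Stem replicate 2.

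Tensins bind the β tail and actin in the long adhesions of fibroblasts. Tns3 had normalized counts of 15187, 15845 and 15212 in Stem, 11464, 11249 and 11176 in TGF-β, and 13158, 12308 and 12634 in Both. It fell 1.36-fold (log2 fold change -0.45 ± 0.038, adjusted p = 3.87e-07, edgeR), and Both lay between the others, 12.4% above TGF-β (adjusted p = 0.0172, edgeR), a call lost without TGF-β replicate 2 or 3, or Both replicate 1 or 3, with adjusted p from 0.00125 to 0.0936 over the alternatives. Tns2 fell 1.52-fold (adjusted p = 3.53e-08, edgeR). Tns1 was the highest tensin per length, at 47.6 ± 5.41 in Stem and 46.7 ± 2.66 in TGF-β, and did not pass in either comparison in the main fit.

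Among kinases and scaffolds, Ptk2b changed most. It encodes Pyk2, the relative of focal adhesion kinase that also responds to calcium. Normalized counts were 929, 1014 and 1018 in Stem, 2164, 2209.8 and 2241 in TGF-β, and 1853, 1888 and 1862 in Both. The groups were separate, with little spread within any. It rose 2.23-fold (log2 fold change 1.16 ± 0.045, adjusted p = 2.75e-10, edgeR) and was 15.3% lower in Both (log2 fold change -0.24 ± 0.043, adjusted p = 0.00512, edgeR), which held in all alternatives. Ptk2, focal adhesion kinase itself, rose 1.17-fold (adjusted p = 1.54e-04, edgeR), a call lost with scaling by total counts, with adjusted p from 1.83e-06 to 0.0528 over the alternatives. Per length the kinases did not differ beyond their SD in TGF-β, at 7.17 ± 0.0762 for Ptk2 and 7.24 ± 0.127 for Ptk2b, whereas in Stem they stood at 6.15 ± 0.169 and 3.24 ± 0.166. The scaffolds Pxn (paxillin) and Bcar1 (the Cas docking protein) fell 1.26-fold and 1.29-fold (adjusted p = 4.54e-04 and 3.48e-04, edgeR). Src did not pass in either comparison in the main fit, with intervals of -0.15 to 0.068 and -0.26 to -0.042 on the log2 scale.

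**Figure D5:**
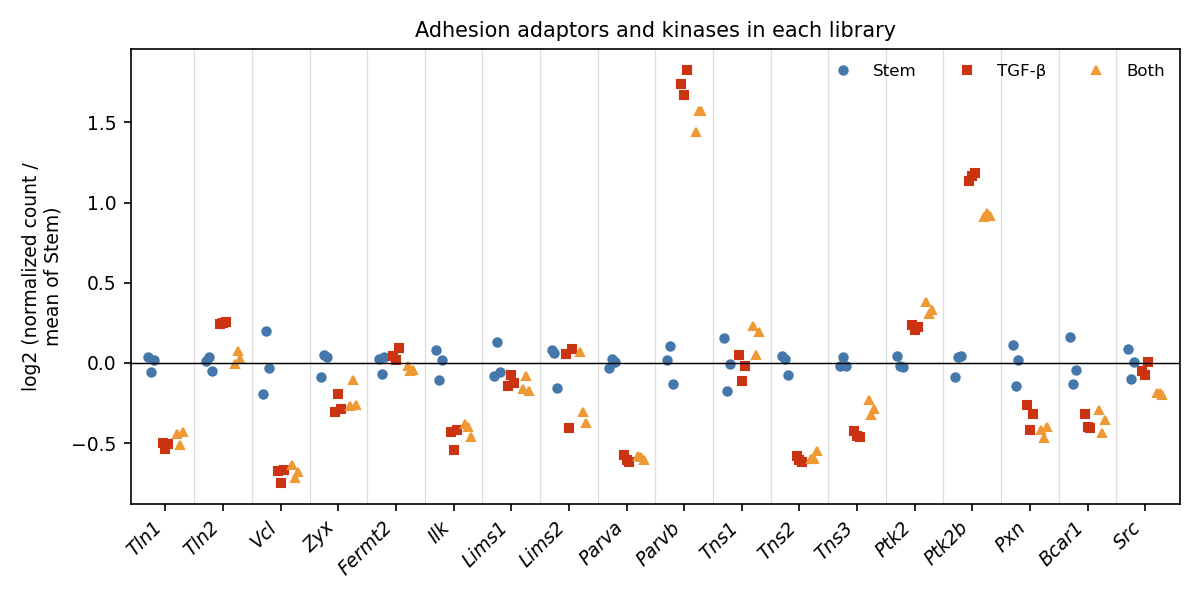
Normalized counts of 18 adaptor and kinase genes (x axis) in each library, as log2 of their ratio to the mean of Stem (y axis). Circles are Stem, squares TGF-β and triangles Both. Parvb and Ptk2b lie above the line at 0 in all stimulated libraries, and Tln1, Vcl, Parva and Tns2 lie below it.

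Against Stem, Both had 9 members higher and 3 lower past 2-fold, where 9.55% and 13.2% of all genes were. These were the members named above for TGF-β except Ptk2b, which was 1.89-fold above Stem in Both. The call for Itga5 (2.09-fold) was lost when libraries were scaled by total counts and with the TREAT test against 2-fold. The median coefficient of variation of the tested members was 6.89% in Stem, 2.78% with TGF-β and 3.10% in Both, and the largest among members with at least 100 mean normalized counts was 25.1% for Itga8 in Stem.

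The genes around the adhesion receptors were described from lists of other adhesion genes. Of 34 tested matrix ligands of integrins, 14 rose and 5 fell past 2-fold between Stem and TGF-β, against 10.6% and 14.5% of all genes, with a median log2 fold change of 0.60 over the list against -0.0027 over all genes. Col1a1, the main fibrillar collagen chain, rose 8.47-fold (adjusted p = 1.49e-12, edgeR), and Postn, periostin, an αv ligand, rose 7.52-fold (adjusted p = 5.72e-11, edgeR). Tgfbi, another integrin ligand of the same family as periostin, fell 3.51-fold, and Lama4, a laminin chain of vessels, fell 3.08-fold (adjusted p = 2.39e-07 and 4.72e-12, edgeR). In Both against TGF-β, 1 of the 34 rose and 19 fell without the fold minimum, against 3.54% and 5.38% of all genes. The median was -0.27 against -0.0020 over all genes. Past 2-fold 2 fell, against 0.47% of all genes. Postn had normalized counts of 2401, 2727 and 2258 in Stem, 18173, 20382 and 17015 with TGF-β and 5163, 6244 and 5246 in Both, and was 3.34-fold lower in Both (log2 fold change -1.74 ± 0.09, adjusted p = 2.09e-06, edgeR). Col3a1 was 2.01-fold lower (log2 fold change -1.01 ± 0.13, adjusted p = 6.34e-04, edgeR), close to the 2-fold minimum. In the main fit no integrin or syndecan had a difference between TGF-β and Both of that size, while Itgb4 passed 2-fold without Both replicate 2.

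Of 37 tested actin-linked and LIM-domain adhesion genes, 19 rose and 16 fell without the fold minimum between Stem and TGF-β, against 37.3% and 37.7% of all genes. Past 2-fold 4 rose and 3 fell, against 10.6% and 14.5%. Pdlim1 and Fblim1, which link adhesions to actinin and filamin, rose 5.82-fold and 3.27-fold (adjusted p = 7.17e-12 and 2.34e-11, edgeR). Kank1, which binds talin at the rim of adhesions, and Svil, supervillin, fell 5.65-fold and 2.46-fold (adjusted p = 7.38e-11 and 9.94e-11, edgeR). In Both against TGF-β 3 rose and 5 fell, against 3.54% and 5.38% of all genes, and Tns4, a tensin that lacks the actin-binding part, was 2.07-fold higher (adjusted p = 0.0172, edgeR) at 25.4 to 81.9 normalized counts. Over all lists 3 genes were past 2-fold between TGF-β and Both, where 0.161% of all genes were higher and 0.47% lower. Without TGF-β replicate 2 or without Both replicate 1 it was 1.

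Of 47 tested genes of integrin activation and signaling, 14 rose and 23 fell between Stem and TGF-β, against 37.3% and 37.7% of all genes, and 3 rose and 4 fell past 2-fold, against 10.6% and 14.5%. Nedd9, a Cas-family scaffold, and Plaur, the urokinase receptor, rose 6.24-fold and 3.16-fold (adjusted p = 9.73e-13 and 9.54e-10, edgeR). Elmo1, which acts with Dock1 on Rac, and Dab2, an adaptor for integrin endocytosis, fell 5.17-fold and 2.79-fold (adjusted p = 3.13e-10 and 6.41e-11, edgeR). In Both against TGF-β 1 of these 47 rose and 1 fell, where 3.54% and 5.38% of all genes did.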

How the data were processed

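RNA was measured by paired-end sequencing of ribosome-depleted, stranded total RNA libraries. The values deposited by the authors are raw counts of reads on each Ensembl gene in each library, not normalized. The submitters' processing notes name HISAT2 2.2.1, SAMtools 1.13 and HTSeq 0.11.3, whereas the paper's methods name Flexbar and STAR, both for GRCm39. How strand and multiply aligned reads were handled is not given in the sources used here, so members whose exons overlap other genes are uncertain. The table has no column that was left unused. A table of Ensembl identifiers gave symbols for 52083 of 55416 genes.

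The analysis used edgeR 4.0.16 and limma 3.58.1 in R 4.3.3. Genes were kept by filterByExpr, which here needs a CPM of about 0.238 in at least 3 libraries, and scaled by TMM (factors 0.967 to 1.08). All 9 libraries were fitted at once with group as the only term by the quasi-likelihood test, with Benjamini-Hochberg adjustment over 14879 genes. Calls used an adjusted p of 0.05, with and without a log2 fold change below -1 or above 1, the thresholds of the study, whose test, DESeq2 (1.42.0 here), was an alternative. The SE is the log2 fold change divided by the root of its F statistic, and intervals are at 95%. Normalized counts refer to a library of 41184338 reads, the mean of the libraries after TMM, in which the floor of 3 counts is 2.63 to 3.26. Fitted changes used a prior count of 0.125. Errors after ± are SD over 3 libraries for levels and SE for log2 fold changes. With 3 against 3 libraries an exact permutation test cannot go below 0.10, so none was used. Levels per length used exon lengths of GENCODE M21, an annotation of another build than that of the counts, so comparisons between genes depend on it.

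The members and the 5 lists of 155 other adhesion genes were chosen with earlier results of these data known. Members are named with values in every library if they passed the 2-fold rule in any comparison, or were called between TGF-β and Both, with at least 100 mean normalized counts. From each list, among genes at the same mean level whose groups did not overlap, the 2 largest rises and 2 largest falls past 2-fold between Stem and TGF-β are named, together with each gene past 2-fold between TGF-β and Both. Alternatives were DESeq2, its size factors in edgeR, total counts, 2 other low-count filters (none, and a mean of at least 10 counts), a replicate block, a prior count of 2, a fit of only the 6 libraries compared, edgeR's TREAT test and leaving out each library in turn. TREAT was set only against calls past 2-fold, so the alternatives named for calls without that minimum do not include it. The scripts were tested on simulated data. Promoters are from RefSeq. Protein sequences were not used here, so the planned protein features are not given.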

Additional observations from a re-analysis of the deposited data

How the results depend on the processing

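No called change of a member turned direction under the alternatives run. Of the calls without the fold minimum, 29 of 32 between Stem and TGF-β were kept in every alternative (Itga11, Itgb4 and Ptk2 were not), 31 of 34 between Stem and Both (Itgav, Lims1 and Sdc1 were not), and 6 of 15 between TGF-β and Both. Members gained between Stem and TGF-β in some alternatives were Itgb8, Lims1 and Src. Leaving out 1 library gave 6 to 21 member calls between TGF-β and Both against 15, namely 7, 6 and 7 without TGF-β replicate 1, 2 or 3, 6 and 8 without Both replicate 1 or 3, and 18 and 21 without Stem replicate 1 or 2, with 12 and 13 without Stem replicate 3 or Both replicate 2. With the 2-fold minimum it gave 0 to 1, the 1 being Itgb4 without Both replicate 2. For the other adhesion genes it gave 22 to 48 calls against 34, and 1 to 3 past 2-fold against 3. Counts over all genes are not given for these fits, so the moves cannot be set beside those of all genes. Fewer libraries also mean fewer degrees of freedom, and the cause of these moves was not tested. Libraries with the same replicate number had correlations of deviations from -0.039 to 0.52, over 0.1 in 6 of 9 pairs. They were 0.434 to 0.52 for number 2, 0.102 to 0.314 for number 1 and -0.039 to 0.08 for number 3. Pairs of different number that held a replicate 2 had -0.485 to -0.11, and other pairs of different number 0.089 to 0.372. The replicate 2 libraries thus shared deviations across groups. The main fit has no term for this, because the libraries of number 3 did not pair. With the replicate block, 21 members (the 15 and also Itga6, Ptk2, Parvb, Tns1, Src and Sdc1) and 53 other adhesion genes were called between TGF-β and Both, and 2309 of all genes against 1327. Without TMM factors the all-gene median was -0.12 (log2) between Stem and TGF-β, and 19 members were then higher and 20 lower against 21 and 18. The TREAT test against 2-fold called 12 members between Stem and TGF-β against 13, without Itga10, and 11 between Stem and Both against 12, without Itga5. Depth limits Itga10, Itgb4, Itgb6, Itgb7 and Fermt1, which had few counts.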

Other observations

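Of 21 tested glypican and syndecan-partner genes, 7 rose and 11 fell between Stem and TGF-β without a fold minimum, against 37.3% and 37.7% of all genes, and 3 rose and 4 fell past 2-fold, against 10.6% and 14.5%. Cspg4, which encodes the proteoglycan NG2 of pericytes and mural cells, had normalized counts of 638, 1221 and 852 in Stem, 15551, 16308 and 16369 in TGF-β, and 11072, 11892 and 11827 in Both. The stimulated libraries all lay far above Stem, and Cspg4 rose 17.8-fold in TGF-β (adjusted p = 3.63e-10, edgeR), while Both against TGF-β did not pass (log2 fold change -0.47 ± 0.14, adjusted p = 0.0617, edgeR). Gpc1, a glypican, rose 3.84-fold (adjusted p = 1.53e-11, edgeR).

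Tgfbr3, which encodes betaglycan, the proteoglycan co-receptor for TGF-β, had normalized counts of 23775, 22006 and 23819 in Stem, 1634, 1557 and 1542 in TGF-β, and 2426, 2204 and 2472 in Both. It fell 14.7-fold in TGF-β (log2 fold change -3.88 ± 0.056, adjusted p = 1.41e-13, edgeR) and was 50.1% higher in Both than in TGF-β (log2 fold change 0.59 ± 0.053, adjusted p = 6.78e-05, edgeR). Hpse, heparanase, which cuts heparan sulfate chains such as those of syndecans, fell 3.19-fold in TGF-β (adjusted p = 5.88e-08, edgeR) and was 36.3% higher in Both (adjusted p = 0.044, edgeR). In Both against TGF-β 2 genes of this list rose and 2 fell without a fold minimum, where 3.54% and 5.38% of all genes did. With the 2-fold minimum 0 passed, where 0.161% of all genes were higher and 0.47% lower.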
